A study of Mus musculus with 4 samples.

Results

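The lectin-like receptors of natural killer (NK) cells that belong to the CD94, NKG2, NKR-P1 and KLRG1 groups were examined for N6-methyladenosine (m6A) in mouse splenic NK cells. The 10 genes were Klrd1, Klrc1, Klrc2, Klrk1, Klre1, Klrb1a, Klrb1b, Klrb1c, Klrb1f and Klrg1, chosen by name, and their peaks were those that the deposited peak list assigns to their Ensembl gene identifiers. All 10 genes had at least 1 peak, where 46.3% of 21951 annotated protein-coding genes had one. Together they held 31 of the 20727 distinct peaks in the list, which covered 12351 genes.

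The study used methylated RNA immunoprecipitation sequencing (MeRIP-seq), in which fragmented poly(A) RNA is pulled down with an antibody to m6A and sequenced beside untreated fragments. There were 2 m6A immunoprecipitates and 2 input RNA libraries, all from wild-type C57BL/6 mice whose NK cells had been expanded in vivo with an IL-15 expression plasmid before splenic NK cells were sorted. The labels give no age and no count of mice per library, and there is no group without the plasmid, so the values describe NK cells under raised IL-15. The list has 1 fold enrichment (immunoprecipitate over input) and 1 log10 p per peak for all 4 libraries together. The depth of each library is unknown, no error between replicates could be computed, and every value below is a description with no test.

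These receptors are type II membrane proteins of the C-type lectin fold, encoded side by side in the NK gene complex, except for Klrg1, which lies apart on the same chromosome. CD94 (Klrd1) pairs with NKG2A (Klrc1), which inhibits the cell through tyrosine-based motifs, or with NKG2C (Klrc2), which activates it through the adaptor DAP12. NKG2D (Klrk1) is an activating receptor for stress-induced ligands. NKR-P1B (Klrb1b) is an inhibitory receptor and NKR-P1C (Klrb1c, known as NK1.1) an activating one, and NK1.1 is among the proteins by which the study gated NK cells. In messenger RNA, m6A is written by the METTL3 complex within a short sequence called DRACH (D for any base but C, R for a purine, H for any base but G), and it is known to gather around stop codons and in 3' untranslated regions (3' UTRs).

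Sequences that the peaks cover are shown here because several of these genes are close copies of each other. All come from the GRCm38 genome, the build of the files, with GENCODE exons, written 5' to 3' on the strand of the gene with T for U. Capitals mark DRACH sites. The first set shows a pair of GGACT sites, the DRACH variant often regarded as the preferred one, that lay 37 nt apart in exon 5 of 6 in 4 of the genes.
Klrc2: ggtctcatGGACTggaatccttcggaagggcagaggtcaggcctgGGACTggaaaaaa
Klrb1a: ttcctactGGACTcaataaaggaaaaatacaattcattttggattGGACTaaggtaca
Klrb1b: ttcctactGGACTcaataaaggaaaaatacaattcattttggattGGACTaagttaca
Klrb1c: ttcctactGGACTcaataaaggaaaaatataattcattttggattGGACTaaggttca

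The pairs lay at chr6:129656832-129656889 for Klrc2, chr6:128618109-128618166 for Klrb1a, chr6:128818528-128818585 for Klrb1b and chr6:128783719-128783776 for Klrb1c, all on the minus strand and all in coding sequence. Both sites of the pair were inside a peak in Klrc2, Klrb1a and Klrb1b. In Klrb1c neither was, although the peak downstream of it began in exon 6. Exons of the coding transcript made up 73 of 427 nt in the Klrc2 peak, 828 of 9317 in Klrb1a and 357 of 3835 in Klrb1b. All exonic bases between the borders of a peak were counted as inside it, and the contrast with Klrb1c rests on that. The pair was noticed after the values were seen.

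The second set shows the coding part of the most significant receptor peak, that of Klrd1, and the end of the coding sequence in the peaks of Klre1, Klrb1b and Klrb1c that cover the stop codon, ending in each case with the stop codon.
Klrd1: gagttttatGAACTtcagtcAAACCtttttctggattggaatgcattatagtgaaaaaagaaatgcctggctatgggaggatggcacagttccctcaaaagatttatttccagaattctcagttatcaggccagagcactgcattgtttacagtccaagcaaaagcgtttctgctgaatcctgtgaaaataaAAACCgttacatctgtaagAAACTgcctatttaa
Klre1: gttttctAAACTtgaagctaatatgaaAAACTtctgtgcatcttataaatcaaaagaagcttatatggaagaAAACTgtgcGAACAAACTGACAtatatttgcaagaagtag
Klrb1b: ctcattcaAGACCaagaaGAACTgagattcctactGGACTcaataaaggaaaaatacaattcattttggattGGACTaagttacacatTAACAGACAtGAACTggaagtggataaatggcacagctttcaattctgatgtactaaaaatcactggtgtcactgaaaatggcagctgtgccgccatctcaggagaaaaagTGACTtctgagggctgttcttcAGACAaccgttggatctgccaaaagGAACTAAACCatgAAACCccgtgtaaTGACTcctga
Klrb1c: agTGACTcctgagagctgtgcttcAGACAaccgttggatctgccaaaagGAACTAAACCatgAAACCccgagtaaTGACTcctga

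These stretches held 4 DRACH sites in 226 nt for Klrd1, 6 in 112 nt for Klre1, 13 in 282 nt for Klrb1b and 6 in 85 nt for Klrb1c. They are spliced sequence from chr6:129596721-129598469 (plus strand) for Klrd1, chr6:129585583-129585694 (plus strand) for Klre1, chr6:128815177-128818936 (minus strand) for Klrb1b and chr6:128780285-128780369 (minus strand) for Klrb1c. Where sites adjoin, their capitals run together, as in Klre1 just before its stop codon. In Klrb1b and Klrb1c a further site, TGACT, begins at the stop codon and runs past the printed end, so it is neither marked nor counted here.

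The receptor peaks were of low fold enrichment and high significance. Over the 31 peaks fold enrichment ran from 1.12 to 2.53 around a median of 1.41, with quartiles at 1.29 and 1.74, while over all 20727 peaks the median was 2.66 and the quartiles were 1.73 and 9.48. Fold enrichment was under 2 in 27 receptor peaks (87.1%) and in 36.1% of all peaks. The median log10 p was -16.2 for the receptors and -4.1 for all peaks, and log10 p was under -3 in 28 of 31 receptor peaks (90.3%) and in 61.5% of all peaks. The 3 peaks that did not reach -3 were Klrc2 peaks 1 and 5 and Klrb1f peak 2, numbered from the 5' end of the transcript. No receptor gene had a strong peak, meaning one with a fold enrichment of at least 5, whereas 49.6% of all genes with a peak did. The fold enrichments given for all peaks and genes take in the 7978 peaks whose log10 p was not under -3. No reference of peaks with like significance was computed, so low fold enrichment is relative to this mixed list.

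**Figure D1:**
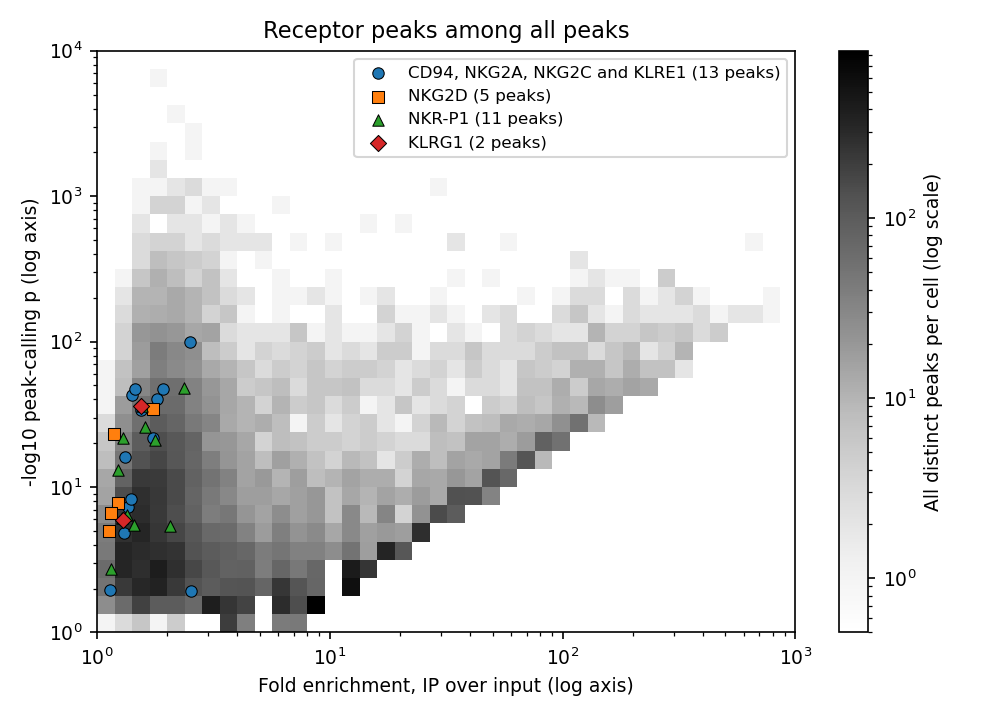
Fold enrichment of immunoprecipitate over input (horizontal, log axis) and -log10 of the peak-calling p (vertical, log axis) of each receptor peak, coloured by receptor group, over the number of all distinct peaks in each cell of the grid (grey, log scale). All 31 receptor peaks lie between 1.12 and 2.53 in fold enrichment, and 28 of them lie above 3 on the vertical axis.

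By its highest peak, the order of the genes was Klrc2 with a fold enrichment of 2.53, Klrd1 with 2.50, Klrb1b with 2.37, Klrb1c with 2.06, Klre1 with 1.91, Klrb1a with 1.78, Klrk1 with 1.74, Klrc1 with 1.55, Klrg1 with 1.54 and Klrb1f with 1.44. The place of Klrc2 rests on its peak 5, the weakest of the 31 by significance (log10 p -1.94), and among its peaks with log10 p under -3 the highest was 1.81, below Klre1. Without a value per library, neighbours in this order cannot be told apart. Even the highest value, 2.53 for Klrc2, exceeded only 48.1% of all peaks in the list, those of weak significance included. Fold enrichment is a ratio to the input at the same place and is neither an expression level nor the share of molecules that carry m6A.

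The receptor transcripts carried several peaks each. There were 2 or more peaks in 9 of 10 genes, against 40.2% of all genes with a peak, and at least 4 in Klrc2, Klrk1, Klrb1f and Klre1, against 6.66% of all genes. The median was 3 peaks per receptor gene and 1 per gene in the whole list. On the longest coding transcript of each gene, the median share of nucleotides inside a peak was 37.1% (range 26.6 to 93.9%), compared with 12.1% over 9614 coding genes with a peak on their transcript. Klrd1 was at the top of the range and Klrc2 at its foot. Every exonic nucleotide between the borders of a peak counted as inside it. In 11 of the 31 receptor peaks under 50% of the span was exonic, so coverage of their exons rests on that assumption.

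Peak centres lay in the 3' UTR for 21 of 31 receptor peaks (67.7%), in coding sequence for 9 (29%) and in the 5' UTR for 1 (3.23%). Over all 15721 peaks with an exonic part on a coding transcript these shares were 56.5%, 33.6% and 9.94%. The centre was within 200 nt of the stop codon in 9 receptor peaks (29%) and in 22.3% of all placed peaks. A peak covered the stop codon in 8 of 10 receptor genes, all but Klrc1 and Klrg1, and in 32.3% of coding genes. Leaving out peaks that share an exact 50-nt window with another gene, the count was 4, and Klrc1 and Klrb1a then had no peak left. The 32.3% was not filtered in this way, so the 4 cannot be set beside it. A peak covered the start codon in 5 receptor genes, Klrd1, Klrc2, Klrb1c, Klrb1f and Klrg1, and in 23.6% of coding genes. A peak ran to the annotated end of the transcript in 7 receptor genes, Klrd1, Klrc1, Klrb1a, Klrb1b, Klrb1c, Klrg1 and Klre1, and in 35.4% of coding genes. The median exonic length of a peak was 209 nt for the receptors and 203 nt for all placed peaks, while the receptor transcripts measured 919 to 3197 nt and the median coding transcript 3118 nt. These counts of codons and ends covered were chosen after the data were seen.

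**Figure D2:**
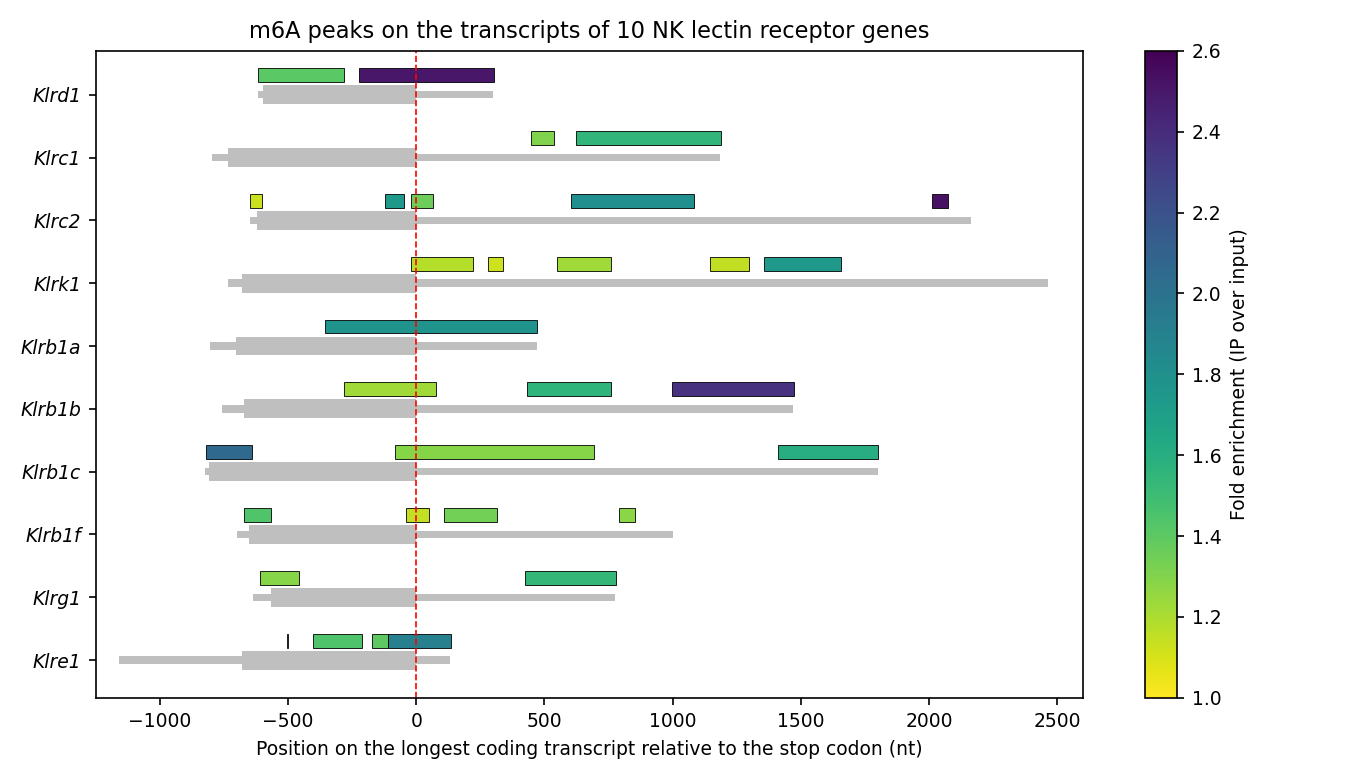
Peaks on the longest coding transcript of each receptor gene, aligned at the stop codon (red dashed line, horizontal axis in nt), with coding sequence as thick and UTRs as thin grey bars. Each coloured box above a transcript is the exonic part of 1 peak and its colour is the fold enrichment. Boxes cross the stop codon in 8 of 10 genes. Without peaks that share a 50-nt window with another gene they do so in 4 genes, and Klrc1 and Klrb1a have no peak left.

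In 7 of the 9 genes with 2 or more peaks, the peak nearest the 3' end had the highest fold enrichment, where 46.6% of 3976 coding genes with 2 or more placed peaks showed that order. The genes were Klrd1, Klrc1, Klrc2, Klrk1, Klrb1b, Klrg1 and Klre1, while in Klrb1c and Klrb1f the peak nearest the 5' end was the highest. This order too was looked at after the data were seen.

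The genes of CD94, NKG2A and NKG2C held 9 of the peaks. Klrd1 (ENSMUSG00000030165, plus strand) encodes CD94, the shared partner chain. Its first peak, chr6:129591782-129596662, was enriched 1.41-fold (log10 p -42.8) and covered nt 1 to 336 of a transcript of 919 nt. Its second peak, chr6:129596721-129598775, was enriched 2.50-fold (log10 p -100), the most significant of all receptor peaks and more so than 97.4% of the list. This second peak took in 226 nt of coding sequence and the whole 3' UTR of 301 nt. Between them the peaks left out only 56 nt, so that 93.9% of the Klrd1 transcript and 90.6% of its coding sequence lay in peaks. Of all coding genes with a placed peak, 8.59% had at least 90% of the transcript in peaks. With so little of the transcript outside peaks, the list does not resolve where on it m6A lies.

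Klrc1 (ENSMUSG00000030167, minus strand), the gene of the inhibitory receptor NKG2A, had peaks in its 3' UTR alone. The peak at chr6:129666666-129666755 was enriched 1.30-fold (log10 p -4.84), and the one at chr6:129666015-129666577, which reached the end of the transcript, was enriched 1.55-fold (log10 p -33.9). Its coding sequence of 735 nt was free of peaks, in contrast with the other 9 genes, where 3.24 to 90.6% of the coding sequence was covered. Klrc2 (ENSMUSG00000052736, minus strand), the gene of the activating NKG2C, had 5 peaks with fold enrichments of 1.13, 1.74, 1.36, 1.81 and 2.53 from 5' to 3'. The first, chr6:129660539-129660599, covered the start codon at a log10 p of -1.96. The second, chr6:129656840-129657266, held the GGACT pair shown above and had a log10 p of -21.6, and 73 of the 211 exonic nt in its span belonged to the coding transcript. The third, chr6:129649593-129650943, covered the stop codon at a log10 p of -7.32. The fourth, chr6:129648574-129649054, had the lowest log10 p of the gene at -40.3. The last, chr6:129647586-129647646, had the highest fold enrichment of any receptor peak together with the weakest log10 p, -1.94.

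Klrc1 and Klrc2 share long stretches of 3' UTR, and their peaks cannot be treated as independent. The second Klrc1 peak matched Klrc2 at 98.9% identity over 563 nt, and 85.4% of the matching Klrc2 stretch lay in the fourth Klrc2 peak. Their fold enrichments were 1.55 and 1.81. Of windows of 50 nt, 50.6% in that Klrc1 peak and 46.8% in that Klrc2 peak occurred without a mismatch in the other gene. The first Klrc1 peak (90 nt) and the part of the third Klrc2 peak on the coding transcript (87 nt) each had an identical copy in the other gene, and in both cases the copy lay outside any peak. In coding sequence, the second Klrc2 peak matched Klrc1 at 95.9% identity over 73 nt, and that stretch of Klrc1 held no peak. How reads that match both genes were assigned is not given in the sources used here. The lack of peaks in the Klrc1 coding sequence is therefore not a clean contrast with Klrc2. Across these peaks 9 windows of 30 nt around a DRACH site were identical between the genes, of which 3 are shown.
Klrc1 and Klrc2: ttcaaaggaaatGAACCaaagaatcagtca
Klrc1 and Klrc2: tgtttcacagaaTGACTtctgtgcagagac
Klrc1 and Klrc2: gggatgagtgccTGACTttttctatgtata

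Counted over all receptors, 7 of the 29 peaks long enough to hold a 50-nt window shared such a window with another gene. With windows of 100 nt it was 2 of 21 peaks, the second of Klrc1 and the fourth of Klrc2. Without the 7 peaks the median fold enrichment was 1.42 over 24 peaks, and the stop codon was covered in 4 genes instead of 8.

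Klre1 (ENSMUSG00000050241, plus strand) encodes KLRE1, which pairs with the KLRI chains. It had 4 peaks with fold enrichments of 1.32, 1.45, 1.40 and 1.91 and log10 p of -16.2, -47.1, -8.21 and -47.1. The fourth, chr6:129585558-129585827, covered the stop codon and the whole 3' UTR of 133 nt, and its coding part is printed above. The first, chr6:129580114-129581980, held 120 exonic nt over all isoforms but only 4 nt of the coding transcript, so it belongs mostly to noncoding isoforms. The second, chr6:129582100-129583558, and the third, chr6:129584185-129584364, had 189 and 62 nt of coding sequence.

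Klrk1 (ENSMUSG00000030149, minus strand), the NKG2D gene, had the longest transcript of the 10, with 3197 nt, and 5 peaks in its last exon. They stood at chr6:129612567-129612807, chr6:129612448-129612508, chr6:129612029-129612238, chr6:129611490-129611640 and chr6:129611131-129611430. Their fold enrichments were 1.18, 1.12, 1.23, 1.15 and 1.74, and their log10 p were -23.1, -4.99, -7.76, -6.59 and -34.4. The first crossed the stop codon by 22 nt and the rest lay wholly in the 3' UTR of 2463 nt, of which 38.2% was in peaks. The first 4 peaks were among the lowest in fold enrichment of the whole list, above 0.251 to 2.51% of peaks, and the last stood above 25.4%. The Klrk1 peaks had the highest density of DRACH sites among the receptors, and a GGAC site is shown from each of peaks 1 and 5.
Klrk1 peak 1: cgggagaaattgGGACTaagaagaagagac
Klrk1 peak 5: cccacttccagaGGACCcaacaccctctct

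The A that precedes the C of these sites is at positions 129612723 and 129611209 of chromosome 6. MeRIP-seq does not resolve single bases, so a site in a peak is a match of letters only.

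The NKR-P1 genes held 11 peaks. Klrb1a (ENSMUSG00000030361, minus strand), which encodes NKR-P1A, had a single peak, chr6:128609227-128618543, at a fold enrichment of 1.78 (log10 p -21.2). It joined exons 4 to 6 in 828 nt, 65% of the transcript, and took in 357 nt of coding sequence and the full 3' UTR of 471 nt. Klrb1b (ENSMUSG00000079298, minus strand), the gene of the inhibitory NKR-P1B, had 3 peaks. The first, chr6:128815102-128818936, was enriched 1.23-fold (log10 p -13.1) and covered the stop codon. The second, chr6:128814419-128814745, was enriched 1.56-fold (log10 p -35.9). The third, chr6:128813706-128814181, reached the end of the transcript and was first among the NKR-P1 peaks by both measures, at a fold enrichment of 2.37 (log10 p -47.6). In Klrb1b, both measures were thus higher in each peak closer to the transcript end.

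Klrb1c (ENSMUSG00000030325, minus strand), the NK1.1 gene, also had 3 peaks, in another order. The highest fold enrichment, 2.06, was in the peak over the start codon at chr6:128788462-128788946, with a log10 p of -5.38. The peak over the stop codon at chr6:128779591-128780369 was enriched 1.29-fold (log10 p -21.6). The peak at the transcript end, chr6:128778485-128778874, was enriched 1.60-fold (log10 p -26). Klrb1f (ENSMUSG00000030154, plus strand), which encodes NKR-P1F, had 4 weak peaks at chr6:129045931-129049381, chr6:129056422-129056512, chr6:129056571-129056779 and chr6:129057256-129057315. Their fold enrichments were 1.44, 1.15, 1.34 and 1.28 and their log10 p were -5.44, -2.74, -6.47 and -6.08. The first of them overlapped exons of Gm44000 and Gm43992, and the counting of reads by strand is not given in the sources used here, so it is uncertain which gene it belongs to. The first Klrb1b peak and the second Klrb1c peak overlapped the annotated gene Gm44511, which is on their own strand.

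Matching stretches of the NKR-P1 genes were often in peaks in more than 1 gene. The Klrb1a peak matched Klrb1b at 92.1% identity over 328 nt, of which 80.8% was in the first Klrb1b peak, and it matched Klrb1c at 91.9% over 335 nt, of which 22.4% was in a peak. The first Klrb1b peak matched Klrb1c at 96.1% over 357 nt, of which 44.8% was in a peak. Klrb1f was more distant, with 69.9 to 76.9% identity where its peaks matched another NKR-P1 gene. Of 50-nt windows, 4.24% in the Klrb1a peak, 14% in the first Klrb1b peak and 5.62% in the second Klrb1c peak occurred in another gene. Gm44511, which overlaps these Klrb1b and Klrb1c peaks on their own strand, was left out of their shares. Apart from that gene, exact sharing was lower than in the NKG2 pair. The Klrb1b peak at the transcript end held GGAC sites of its own, shown here before a Klrb1a site and its Klrb1c counterpart.
Klrb1b peak 3, first GGAC: taagacaccagaGGACTttctcagtggcca
Klrb1b peak 3, second GGAC: gcacagctgtggGGACAtcttggtcctgaa
Klrb1a: ggcacagcacatGGACTctgaaaacactgg
Klrb1c: ggcacagcacatGGACTctgaaagcactgg

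Klrg1 (ENSMUSG00000030114, minus strand) encodes KLRG1, an inhibitory receptor for cadherins that marks mature NK cells. Its first peak, chr6:122279719-122282853, covered the start codon at a fold enrichment of 1.29 (log10 p -5.94). Its second, chr6:122270596-122270949, took in the last 354 nt of the 3' UTR at a fold enrichment of 1.54 (log10 p -35.8). Only 5 DRACH sites lay in the 503 nt of these peaks, the lowest density of the 10 genes, but 2 of them were GGAC sites, both in the second peak.
Klrg1 peak 2, first GGAC: agctaggcggaaGGACTgtgggtgcttccg
Klrg1 peak 2, second GGAC: cgaatgcctgaaGGACAggtatgctgagca

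**Figure D3:**
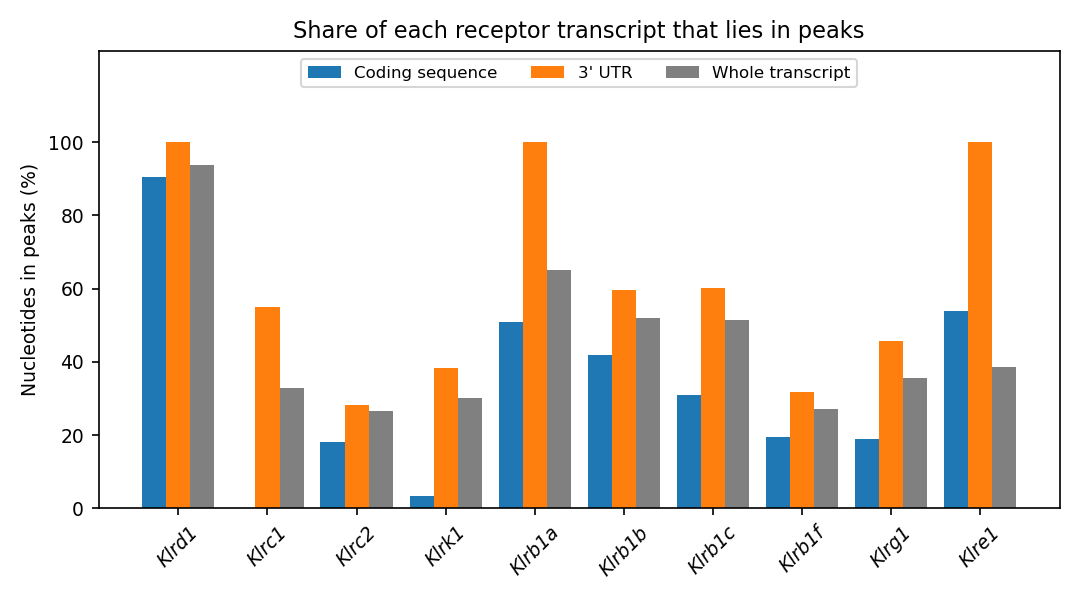
Percentage of the nucleotides of the coding sequence (blue), the 3' UTR (orange) and the whole longest coding transcript (grey) that lie in peaks, for each receptor gene. The 3' UTR is covered to 100% in Klrd1, Klrb1a and Klre1, and the coding sequence of Klrc1 is at 0%.

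DRACH sites were counted on both sides of the peak borders. Inside receptor peaks there were 207 sites in 8029 nt, 25.8 per kb, and on the same transcripts outside peaks 237 sites in 11416 nt, 20.8 per kb. All placed peaks held 20.2 per kb. The density varied among the receptor peaks with an SD of 12.9 per kb. Inside was higher than outside in 7 genes, by the widest margin in Klrk1 (35.3 and 19.7 per kb) and Klre1 (32 and 16.4), and was nearly equal in Klrb1c (23 and 22). Outside was higher in 3 genes, Klrb1f (19.5 inside and 33.9 outside), Klrg1 (9.94 and 17.6) and Klrd1 (13.9 and 17.9, with only 56 nt outside). At least 1 DRACH site was present in 29 of 31 receptor peaks (93.5%) and in 90% of all placed peaks, and the exceptions were the first Klre1 peak and the fourth Klrb1f peak.

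**Figure D4:**
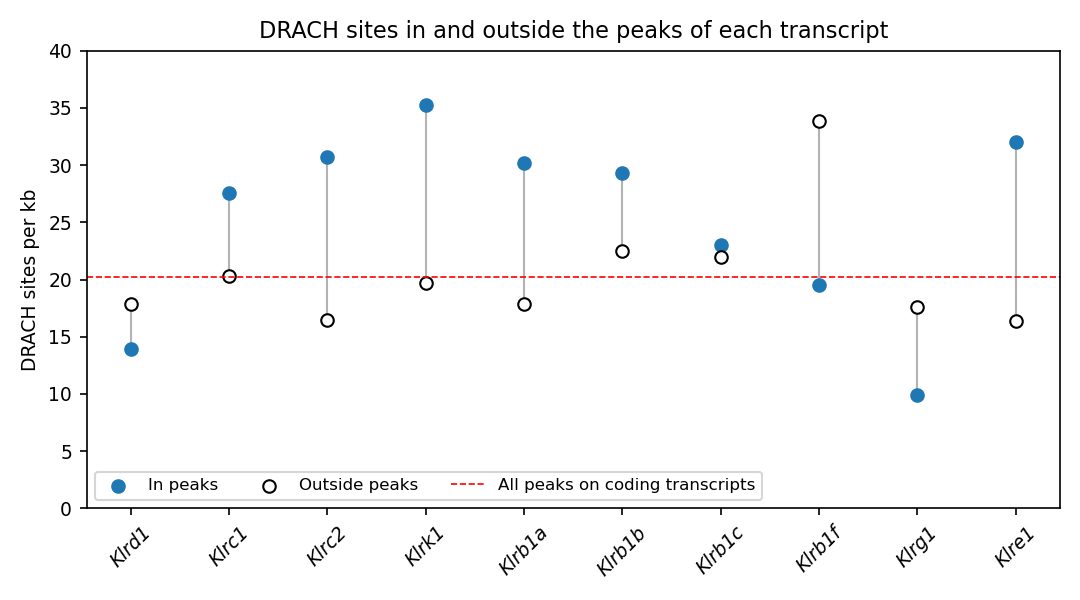
DRACH sites per kb of exonic sequence inside (filled) and outside (open) the peaks of each receptor transcript, with the value for all placed peaks as a red dashed line at 20.2. The filled point is higher in 7 of 10 genes.

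The kinds of site differed from the overall density. The commonest was AGACA, with 23 sites in 9 genes, followed by TGACT with 20 sites in 8 genes, and GGACT had 15 sites in 7 genes. The 4-letter core GGAC occurred 3.49 times per kb in receptor peaks and 4.03 times per kb in all placed peaks, and 15 receptor peaks (48.4%) held it, against 54.5% of all placed peaks. Thus the receptor peaks had more DRACH sites per kb than all peaks but not more GGAC.

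The labels in the deposited list placed 24 receptor peaks in the 3' UTR, 5 in the 5' UTR and 2 in other exons. Of the 5 peaks labelled 5' UTR, 4 were centred in the coding sequence of the longest coding transcript, those of Klrd1, Klrb1c, Klrb1f and Klrg1, which all ran across the start codon.

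The partners of these receptors were read from the same list. All 12 genes of a list of adaptors and proximal signalling molecules had a peak (46.3% of all protein-coding genes), with a median fold enrichment of 1.75 over 22 peaks. A strong peak was present in 2 of the 12, against 49.6% of all genes with a peak. The highest was Ptpn11, the phosphatase SHP-2, at 26.60 (log10 p -5.48), in a peak that touched no exon of a coding isoform. Its other peak had 1.44 at -4.08. Grb2, an adaptor of activating signals, followed at 6.64 (log10 p -3.75), and its other peaks had 2.18 at -14.8 and 2.08 at -78.8. Ptpn6, the phosphatase SHP-1, had 4.27 at a log10 p of only -1.95, and its other peak had 3.25 at -86. Inpp5d, the phosphatase SHIP-1, had 4.17 at a log10 p of only -2.27, outside coding isoforms, and its other peaks had 1.47 at -10 and 1.81 at -16.5. The highest peaks of the direct signalling partners of the receptors stood at 1.48 for Tyrobp (DAP12), 2.02 for Hcst (DAP10) and 1.63 for Fcer1g (the Fc receptor gamma chain), each with a peak over its stop codon and with log10 p of -179, -43.7 and -121.

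Among the ligands, 5 of 15 annotated genes (33.3%) had a peak, against the 46.3% of all protein-coding genes, and 4 of the 5 had a strong one, against 49.6% of all genes with a peak. Clec2d, which encodes the NKR-P1B ligand Clr-b, had the highest fold enrichment among the ligands, the adaptors and the neighbouring lectin genes at 29.30, with a log10 p of -198, in a 3' UTR peak of 178 nt (chr6:129186357-129186534). Clec2i, which encodes the ligand Clr-g, had 13.30 at a log10 p of -26.4. Raet1e, an NKG2D ligand gene, had 9.48 at a log10 p of only -1.69. H2-T23, whose product Qa-1 is the ligand of CD94 with NKG2A, had 6.45 at a log10 p of -87. Its other peaks had 1.44 at -12.4, 1.45 at -60.1 and 1.74 at -86, and the other Clec2d peak had 1.53 at -12.2. The receptor Klrb1b and its ligand gene Clec2d thus stood at 2.37 and 29.30 in their highest peaks. Raet1a, Raet1b, Raet1c and H60a were not found in the annotation used here.

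Of 11 annotated neighbouring lectin genes in the NK gene complex, 5 (45.5%) had a peak, close to the 46.3% of all protein-coding genes. Of these 5, 0 had a strong one, against 49.6% of all genes with a peak. The highest were Clec1b at 4.74 with a log10 p of -1.42, Clec7a at 2.04, Cd69 at 1.92 and Clec12a at 1.62, and the median over 10 peaks was 1.59. Klrc3 and Klri1, relatives of the receptors examined, had no peak. A gene with no peak may be little expressed, and expression was not analysed here. All 3 lists, like the 10 receptors, were chosen with earlier results of these data known.

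**Figure D5:**
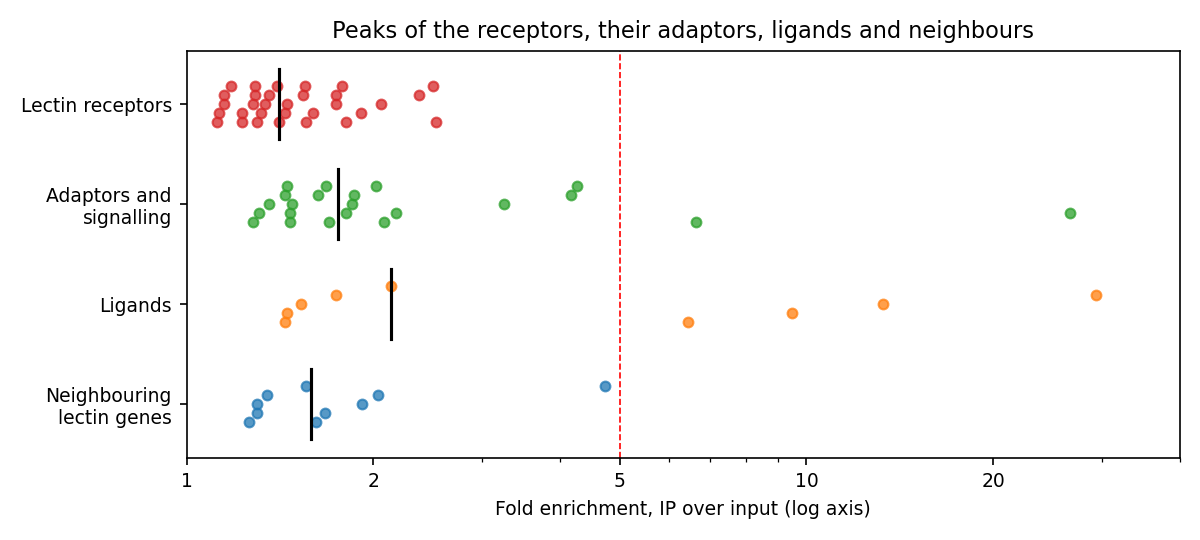
Fold enrichment (log axis) of each peak of the receptors, the adaptors and signalling molecules, the ligands and the neighbouring lectin genes, with the median of each list as a black bar and the strong-peak limit of 5 as a red dashed line. The receptor peaks end at 2.53, while 4 ligand peaks and 2 adaptor peaks lie beyond 5.

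Peaks were also read for markers of the cells a spleen sort can hold. All 8 NK markers and 4 of 4 myeloid markers had a peak, where 46.3% of all protein-coding genes had one. The T cell share was close to that background, at 3 of 6 markers (Cd3d, Cd3e and Cd3g, but none of Cd4, Cd8a and Cd8b1). Of the B cell genes, Cd79a had a peak at a fold enrichment of 7.59 (log10 p -9.11) and Cd79b at 2.69 (log10 p -27.6), and Ms4a1 had none. The median fold enrichment was 1.54 for the NK, 4.74 for the T cell and 1.64 for the myeloid markers. The highest myeloid peaks had 1.90 for Lyz2 (log10 p -143), 1.67 for Cd68 (-49.3), 1.64 for Csf1r (-322) and 1.38 for Adgre1 (-35.3). In the highest peak of each NK marker, log10 p ran from -2.86 to -624. The highest T cell value, 31.60 for Cd3g (log10 p -19.3), was in a peak that touched no exon of a coding isoform. Other Cd3g peaks had 9.48 at -1.69, 1.80 at -14.1 and 3.79 at -46.8. Cd3e followed with 30.30 (log10 p -6.35). A peak needs RNA of the gene in the sample but gives no level, and in such bulk RNA fewer cells of a type and less RNA per cell cannot be told apart. The part of other cells in the receptor and ligand peaks was not tested.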

How the data were processed

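MeRIP-seq was performed by the authors on 2 m6A immunoprecipitates and 2 input RNA libraries of sorted splenic NK cells. The authors trimmed the reads, aligned them to GRCm38 with HISAT2, called peaks with exomePeak and annotated them with ChIPseeker (version 1.0 in the submitters' processing notes). The deposited fold enrichment is a ratio of immunoprecipitate to input reads, and the deposited significance is a score, the unadjusted log10 p of peak calling. The list has 0 columns with a value per sample, so depth is unknown, and how replicates were combined is not given in the sources used here.

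Of 20751 rows, 24 exact repeats were removed. Peaks were placed by the centre of their exonic part on the longest coding transcript (GENCODE M21). DRACH sites were counted on the strand of the gene. Likeness was measured with BLAST+ 2.17.0 (expect value 1e-05, at least 50 nt) and by exact windows of 50 and 100 nt over all annotated transcripts. Genes that overlap a peak on its own strand were left out of its window counts. Placement and motif counts were tested on simulated data. Named genes were the 10 receptors and up to 4 genes per list, taken by their highest fold enrichment. Tyrobp, Hcst, Fcer1g, Klrc3 and Klri1 were named after their values were seen. The members and lists were chosen with earlier results of these data known. Some items, a marker and site sequences among them, are not reported here.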

Additional observations from a re-analysis of the deposited data

How the results depend on the processing

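No paired analysis was possible because the list gives no value per sample, and leaving out each replicate could not be run for the same reason. Of 26 alternatives, 20 stayed near the reported value and 6 moved. Asking for a fold enrichment of at least 2 left 4 peaks instead of 31 and 4 genes with a peak instead of 10, and with that limit in place of 5 there were 4 genes with a strong peak instead of 0. Taking only the highest peak of each gene moved the median fold enrichment from 1.41 to 1.84. Counting GGAC in place of DRACH gave 3.49 sites per kb instead of 25.8, since it is a narrower motif. Without the peaks that share a 50-nt window with another gene, the stop codon was covered in 4 genes instead of 8, since fewer peaks were counted. This last alternative, the others for the stop codon and those for the peak nearest the 3' end were chosen after seeing the data. For the peak nearest the 3' end, 7 of 9 genes became 6 of 8 without shared windows. Peaks with log10 p under -3 covered the stop codon in 7 genes. Depth is unknown, so a missing peak cannot be read as a missing mark.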
